A study of Mus musculus with 2 samples.

Results

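The HOX clusters of the mouse hold 6 of the 1973 microRNA genes counted in these libraries: Mir10a, Mir10b, Mir196a-1, Mir196a-2, Mir196b and Mir615. They were chosen by name and place in the annotation, by a rule that sets no threshold on their levels. A search of the 4 HOX clusters with 20000 bp on either side found no other gene of the count table there. The annotation used for positions also lists the microRNA gene Gm44463 in the span searched around Hoxd, which the count table does not hold. MicroRNAs were sequenced from whole lungs of B6NCrl mouse embryos at embryonic day 15.5, with inserts shorter than 30 nt. There was 1 group of 2 biological replicates, healthy and untreated as far as the labels say. Replicate 1 pooled lungs from 78 embryos and replicate 2 from 62, male and female together in both. Both pools carry the same donor identifier. The spread between them is that of 2 pools, and single embryos cannot be seen. Whether dissection and library preparation were done separately for each pool is not settled by that identifier.

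HOX genes encode homeodomain transcription factors that give cells their address along the body axis. In each cluster the genes at the 3′ end act in anterior parts of the embryo and those at the 5′ end in posterior parts. Paralogs carry the same number in each cluster, low numbers anterior and high numbers posterior. MicroRNAs of the miR-10 and miR-196 families lie between the HOX genes and are known to repress HOX messenger RNAs. The lung forms in the anterior trunk, and Hoxa5 of its mesenchyme is known to be needed for its development.

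The mature sequences show which members could be told apart by sequence. They are shown 5′ to 3′ with the seed, bases 2 to 8, which directs target recognition, in capitals. Sequences and positions are from RefSeq on GRCm38.p6, the assembly that mm10 denotes, and the matures of all 6 genes matched by symbol.
miR-10a-5p (Mir10a, chr11:96317186-96317208, plus strand): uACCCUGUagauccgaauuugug
miR-10b-5p (Mir10b, chr2:74726074-74726096, plus strand): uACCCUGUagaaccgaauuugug
miR-196a-5p (Mir196a-1, chr11:96265187-96265208, plus strand, and Mir196a-2, chr15:102973365-102973386, plus strand): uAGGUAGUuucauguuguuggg
miR-196b-5p (Mir196b, chr6:52230129-52230150, minus strand): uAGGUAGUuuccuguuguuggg
miR-615-3p (Mir615, chr15:103014969-103014990, plus strand): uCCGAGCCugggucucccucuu

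Positions within a mature sequence are counted from 1 at its 5′ end. The products of Mir10a and Mir10b differ by a single substitution, U12A from miR-10a-5p to miR-10b-5p, and share the seed ACCCUGU. No other mature sequence in the table has that seed. The products of the miR-196 genes share the seed AGGUAGU and likewise differ at 1 position, A12C from miR-196a-5p to miR-196b-5p. Both substitutions lie outside the seed. The miR-196 seed is the same run of 7 bases that let-7a-5p carries at its bases 3 to 9, shifted by 1 base against the let-7 seed. The seed of miR-615-3p, CCGAGCC, was found in no other mature sequence of the table.

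Mir196a-1 and Mir196a-2 give the same 22 nt product, so a read of exactly that sequence fits both places. The shared stretch of the hairpins is 22 nt long and ends at the product: the base before it is G in Mir196a-1 and U in Mir196a-2, and the base after it is C and A. Their other arms differ and can be placed. These are shown because reads of them, or reads reaching past the shared product, are the ones a counter can give to 1 gene.
miR-196a-1-3p (chr11:96265225-96265246, plus strand): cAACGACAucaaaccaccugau
miR-196a-2-3p (chr15:102973401-102973422, plus strand): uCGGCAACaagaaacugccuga

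Reads mapped to several places stood on a summary line outside the genes, 3588198 in replicate 1 (31.4% of its reads) and 4144809 in replicate 2 (30.6%). They were assumed not to be counted for any gene, and the levels of Mir196a-1 and Mir196a-2 below can be too low by an unknown amount. By contrast, the longest stretch shared by the hairpins of Mir10a and Mir10b was 15 nt, and that of Mir196b with any other hairpin 12 nt, both shorter than a mature product. How many mismatches the alignment allowed is not given in the sources used. Whether reads of miR-10a-5p with an error at position 12 were counted for Mir10b was not tested. The same holds for reads of miR-196a-5p and Mir196b. The table lists no hairpin for Mir615.

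The 5354530 reads of replicate 1 and 6489390 of replicate 2 that fell on the sense strand of microRNA genes set the scale, so 1 count equalled 0.187 and 0.154 CPM (counts per 1000000 gene counts). Each read covers a whole small RNA and the printed products are 22 or 23 nt long, so CPM was not divided by length. A gene with at least 10 counts in both libraries was called detected, which held for 357 genes, 18.1% of the table, and for 6 of the 6 members. Intervals below are 95% exact binomial intervals and cover counting error only. Of the genes listed as markers of lung epithelium, endothelium and mesenchyme, 12 of 12 were detected, which does not by itself show that the tissue is lung. Markers of tissues that a dissection can carry along were low: striated muscle genes summed to 0.0930% and 0.124% of the counts of replicates 1 and 2, erythroid genes to 0.0684% and 0.0833%, and the leukocyte gene to 0.0685% and 0.0648%. Liver took 0.0470% and 0.0278%, neural genes 0.0168% and 0.0111%, and kidney and gut genes 0.0107% and 0.0108%. Of these lists, 4 of 9 tabulated muscle genes, 1 of 6 neural, 3 of 4 kidney and gut, 2 of 2 erythroid, 1 of 1 liver and 1 of 1 leukocyte genes were detected. Mir1a-1, Mir133a-1, Mir133a-2, Mir9-2 and the 3 Mir124a genes were at 0 counts in both libraries, some of them copies whose reads can map to several places.

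By counted reads Mir10a was the only abundant member, and the rest lay at least 27.3-fold lower in each library. Under the assumption above, reads that fit both Mir196a genes are missing from these levels, so that bound is uncertain for them. The 6 genes together took 3.34% of the counts in replicate 1 (95% interval 3.32 to 3.35) and 3.45% in replicate 2 (3.43 to 3.46), a mean of 3.39% ± 0.0764 (SD, n = 2). Mir10a alone made up 95.9% and 96.5% of that sum, Mir10b 3.52% and 2.87%, and the 4 others together the small remainder. The 5 genes other than Mir10a took 0.128% ± 0.0121 of all counts. With 1 group of bulk tissue, more cells of a type and more RNA per cell cannot be told apart for any of these levels.

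**Figure D1:**
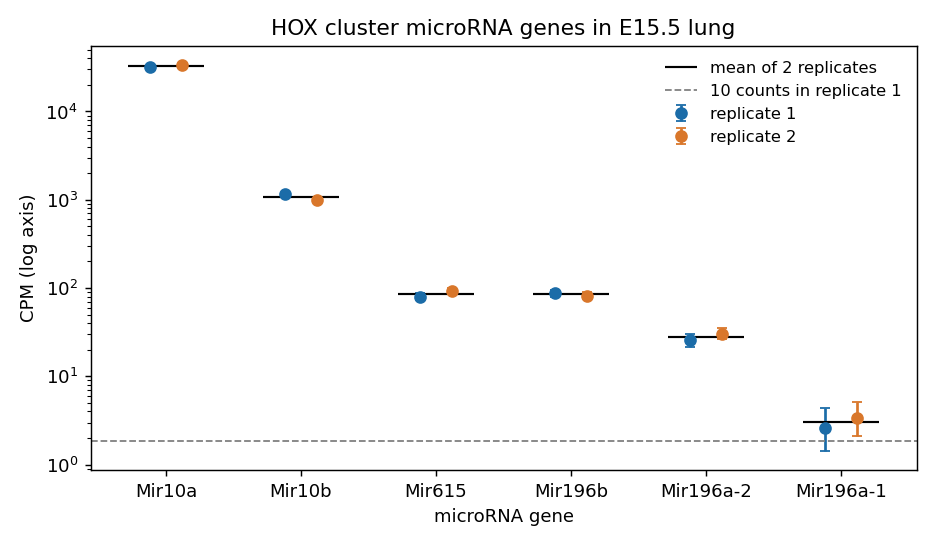
CPM of the 6 HOX cluster microRNA genes on a log axis, with 1 point per library, 95% exact binomial intervals (counting error) and a bar at the mean of the 2 replicates. The levels run from 32640 CPM for Mir10a to 3.00 CPM for Mir196a-1, and the points of Mir615 and Mir196b overlap; the dashed line is 10 counts in replicate 1, 1.87 CPM.

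Mir10a, the miR-10 gene of the Hoxb cluster, had 171422 counts in replicate 1, or 32014 CPM (31865 to 32164), and 215868 in replicate 2, or 33265 CPM (33127 to 33403). Both libraries placed it at rank 8 of all microRNA genes. Its mean was 32640 ± 884 CPM (SD, n = 2), and 2.24% of detected genes stood at or above it. The precursor (ENSMUSG00000065519.1) occupies chr11:96317165-96317274 on the plus strand of mm10, in no annotated host gene. The nearest HOX coding exon on its 5′ side belongs to Hoxb5, 12030 bp away, and on its 3′ side to Hoxb4, 1495 bp away.

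Mir10b, its counterpart in the Hoxd cluster, had 6285 counts in replicate 1, or 1174 CPM (1145 to 1203), and 6422 in replicate 2, or 989.6 CPM (965.6 to 1014). It ranked 90 in replicate 1 and 96 in replicate 2, with a mean of 1082 ± 130 CPM (SD, n = 2). The precursor (ENSMUSG00000065500.2) occupies chr2:74726070-74726137 on the plus strand, in introns of Hoxd4 and of a long Hoxd3 transcript. The first HOX coding exon on its 3′ side is that of Hoxd4, 1.14 kb away, and the nearest on its 5′ side that of Hoxd8, 19.3 kb away. The miR-10 genes thus share both a seed and a place just 5′ of a paralog 4 gene, while their levels differed widely.

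Mir10a exceeded Mir10b by 27.3-fold in replicate 1 and 33.6-fold in replicate 2, a mean of 30.3-fold (log2 ratio 4.92 ± 0.213, SD, n = 2). The levels did not overlap between the genes in either library. The exact 2-sided permutation test gave p = 0.333, the smallest that 2 values against 2 allow (Benjamini-Hochberg adjusted 0.50 over 3 comparisons). That test sets 2 values against 2 as if they came from separate libraries, and it cannot pass a threshold of 0.05 whatever the difference. Whether some sequences enter small RNA libraries more readily than others was not tested, and the spread between 2 like libraries does not cover it.

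Mir615, within Hoxc5, had 427 counts in replicate 1, or 79.7 CPM (72.4 to 87.7), and 605 in replicate 2, or 93.2 CPM (85.9 to 101). Its mean was 86.5 ± 9.53 CPM (SD, n = 2). The precursor (ENSMUSG00000076010.1) occupies chr15:103014910-103015001 on the plus strand, in an intron of Hoxc5, 0.374 kb from the coding exon before it and 0.226 kb from the one after it. It is the only member that sits between the coding exons of a single HOX gene.

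Mir196b, of the Hoxa cluster, had 468 counts in replicate 1, or 87.4 CPM (79.7 to 95.7), and 532 in replicate 2, or 82.0 CPM (75.2 to 89.3). Its mean was 84.7 ± 3.83 CPM (SD, n = 2). The precursor (ENSMUSG00000065443.1) occupies chr6:52230081-52230165 on the minus strand, between the coding exons of Hoxa10 (2.34 kb) and Hoxa9 (3.98 kb). In the annotation it falls in a noncoding exon of 2 of the 3 Hoxa9 transcripts that span it.

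Mir615 and Mir196b could not be ranked against each other. Mir196b was higher in replicate 1 and Mir615 in replicate 2, with a mean log2 ratio of Mir196b over Mir615 of -0.03 ± 0.225 (SD, n = 2) and p = 1 in the exact 2-sided permutation test. Mir615 made up 0.00797% and 0.00932% of the counts of replicates 1 and 2, and Mir196b 0.00874% and 0.00820%. Both were below each of the summed marker lists of other tissues given above, in both libraries. What part RNA of other tissues has in these low levels was not tested.

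Mir196a-2, of the Hoxc cluster, had 137 counts in replicate 1, or 25.6 CPM (21.5 to 30.2), and 197 in replicate 2, or 30.4 CPM (26.3 to 34.9), a mean of 27.97 ± 3.37 CPM (SD, n = 2). Its precursor (ENSMUSG00000065488.1) occupies chr15:102973350-102973434 on the plus strand, 2.28 kb past the last coding exon of Hoxc10 and 8.22 kb before the nearest coding exon of Hoxc9, in an intron of a long Hoxc5 transcript. Mir196a-1, of the Hoxb cluster, had 14 and 22 counts, or 2.61 CPM (1.43 to 4.39) and 3.39 CPM (2.12 to 5.13), the lowest level of the 6 at 3.00 ± 0.548 CPM (SD, n = 2). Its precursor (ENSMUSG00000065546.1) occupies chr11:96265164-96265265 on the plus strand, in no annotated host gene, 68.9 kb past Hoxb13 and 6.28 kb before Hoxb9.

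Among counted reads Mir196a-2 exceeded Mir196a-1 by 9.79-fold in replicate 1 and 8.95-fold in replicate 2. That ratio describes reads that could be given to 1 of the copies, and it need not hold for the shared product. Mir196b in turn exceeded Mir196a-2 by 3.42-fold and 2.70-fold, a direction that the uncounted reads of miR-196a-5p could change.

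Summed by family, the miR-10 genes stood at 33721 ± 754 CPM and the 3 miR-196 genes at 116 ± 0.0879 CPM (SD, n = 2). An SD over 2 libraries can fall below counting error, and no counting interval was computed for the sums. For Mir196b alone that interval was 79.7 to 95.7 CPM in replicate 1, far wider than the SD of the miR-196 sum. The log2 ratio of the sums was 8.19 ± 0.0312, or 287-fold in replicate 1 and 296-fold in replicate 2 (exact 2-sided permutation p = 0.333, adjusted 0.50). Against Mir196b alone, whose mature products fit no other hairpin of the table exactly, the log2 ratio was 8.64 ± 0.0976. The family ratio is uncertain because the Mir196a genes can be undercounted by an unknown amount.

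Set along the body axis, the members fell into an anterior and a posterior set. Mir10a, Mir10b and Mir615 lie next to or inside genes of paralog number 4 or 5. The 3 miR-196 genes lie just 5′ of a paralog 9 gene, with a coding exon of paralog 10 (Mir196b and Mir196a-2) or 13 (Mir196a-1) before them. The highest counted levels were those of the miR-10 genes in the anterior set, but Mir615, from the same stretch of the axis, was level with the posterior Mir196b. Within the anterior set, levels ranged from 86.5 to 32640 CPM, so position alone did not order them. By counted reads the Hoxb cluster held both the highest and the lowest member, though the lowest place of Mir196a-1 is uncertain, since reads of its product also fit Mir196a-2. Messenger RNAs of the HOX genes were not measured in these libraries, and the levels of the host or neighbouring HOX genes cannot be set beside those of the microRNAs.

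**Figure D2:**
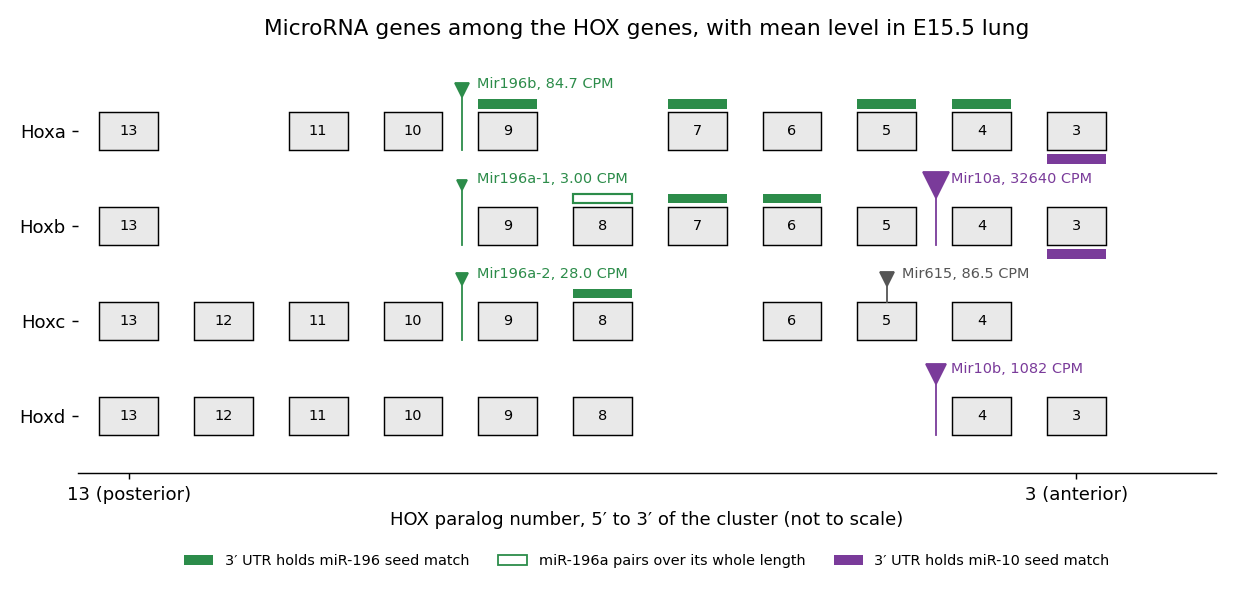
HOX genes of the 4 clusters by paralog number, 13 to 3, posterior on the left, with the microRNA genes placed among them (triangles, larger for higher mean CPM; not to genomic scale). Coloured bars mark 3′ UTRs with a seed match to miR-196 (above the gene) or miR-10 (below), and the open bar marks Hoxb8, where miR-196a-5p pairs over its whole length; the miR-10 genes, at 32640 and 1082 CPM, sit 5′ of paralog 4. Hoxb1 (miR-196 match) and Hoxd1 (miR-10 match) lie outside the range shown.

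Seed matches in HOX messenger RNAs were searched as a description of what these microRNAs could pair with. The 7-letter matches to bases 2 to 8 were ACAGGGT for miR-10, ACTACCT for miR-196 and GGCTCGG for miR-615-3p, read on the sense strand of the longest annotated 3′ UTR of each protein-coding gene. The opposite strand is not in the messenger RNA and was not searched. The miR-196 match overlaps the let-7 match, since let-7a-5p carries the run described above at its bases 3 to 9. ACTACCT was present in 8 of 38 HOX 3′ UTRs searched (21.1%), beside 6.09% of 20979 3′ UTRs of all genes. ACAGGGT was present in 3 of 38 (7.89%), beside 12.5% of all, and GGCTCGG in 1 of 38 (2.63%), in Hoxb4, beside 2.28% of all. With the 8-letter matches, which add an A facing base 1, the HOX share for miR-10 was above that of all genes rather than below it: ACAGGGTA was present in 3 of 38 (7.89%), beside 2.09% of all. ACTACCTA was present in 5 of 38 (13.2%), beside 1.26% of all, and GGCTCGGA in 0 of 38, beside 0.524% of all. These shares were not tested. The median 3′ UTR was of like length in both, 963 nt for HOX genes and 954 nt for all.

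The 8 HOX genes with a miR-196 match were Hoxa4, Hoxa5, Hoxa7, Hoxa9, Hoxb1, Hoxb6, Hoxb7 and Hoxc8. Hoxa7 held 4 matches and Hoxc8 held 2. Hoxa9 is the neighbour of Mir196b itself. The 3 with a miR-10 match were Hoxa3, Hoxb3 and Hoxd1. The places of these genes along the axis were not compared with those of all searched HOX genes. No pattern of position is therefore read from them. A match describes letters in a window and does not show that the messenger RNA is bound in lung.

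Pairing over the whole length stood out for Hoxb8, a known target that miR-196 cleaves. Its 3′ UTR holds a 22 nt window, chr11:96284888-96284909 on the plus strand of GRCm38, that pairs with miR-196a-5p at 21 positions by Watson-Crick pairs and at position 5 by a G-U pair, with none unpaired. Among 20873 3′ UTRs long enough to search, 1 paired this well, Hoxb8 itself. With miR-196b-5p the same window paired at 20 positions and by the same G-U pair, leaving 1 unpaired. At least this well paired 6 of the 20873 3′ UTRs, Hoxb8 included, so for miR-196b-5p it was not alone. Because of the G-U pair inside the seed, Hoxb8 does not count among the 8 genes above. The window is shown with the bases that face the seed in capitals, as DNA letters from GENCODE M21.
Hoxb8 site: cccaacaacatgaaACTGCCTa

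By level, the genes most like each member were taken as its neighbours in rank over the 2 libraries, the measure being the difference in mean log2 CPM. Mir99a stood just above Mir10a at 43797 and 37949 CPM (log2 distance 0.32), and Mir26b just below it (-0.21). Mir10b lay between Mir15b (0.11) and Mir674 (0.00). Mir615 and Mir196b were separated only by Mir410, at 86.3 and 85.4 CPM, with Mir362 above (0.04 from Mir615) and Mir495 below (-0.07 from Mir196b). Mir196a-2 lay between Mir218-2 and Mir490, and Mir196a-1 between Mir294 and Mir3075, all within 0.02. Likeness of level in 2 libraries says nothing of a shared role.

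**Figure D3:**
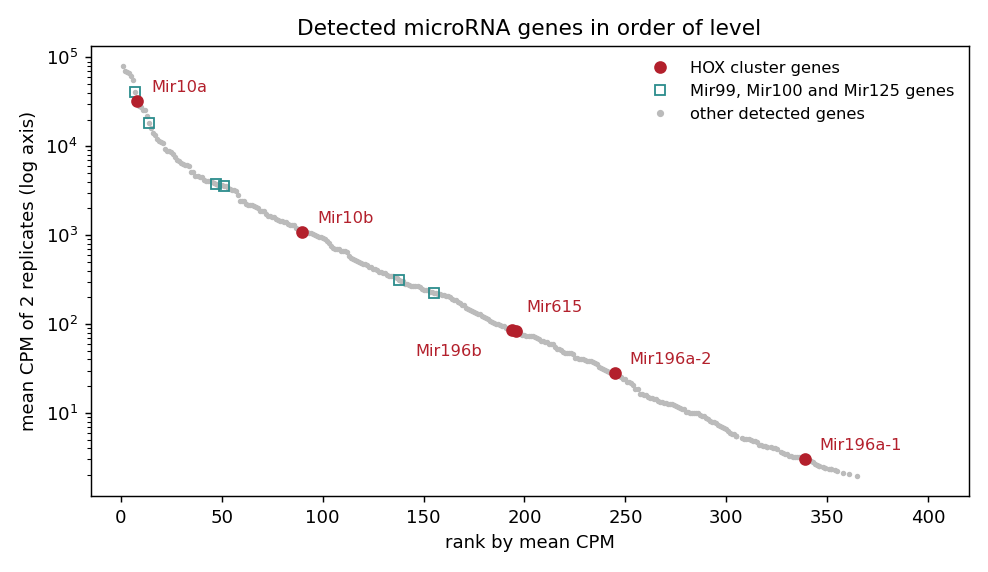
Mean CPM (log axis) of the 357 detected microRNA genes against their rank, with the 6 HOX cluster genes as filled circles and the Mir99, Mir100 and Mir125 genes as open squares. Mir10a is at rank 8, Mir10b at 90, Mir615 at 194 with Mir196b close behind it, Mir196a-2 at 245 and Mir196a-1 at 339.

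The Mir99, Mir100 and Mir125 genes, relatives of miR-10 that lie outside the HOX clusters, took 7.07% and 6.36% of the counts in replicates 1 and 2. The HOX members' share was therefore 0.472 and 0.542 times theirs. The kinship is visible in the letters: miR-10a-5p and miR-100-5p share a run of 11 bases, GUAGAUCCGAA, at bases 7 to 17 of the former and 6 to 16 of the latter, but their seeds differ.
miR-100-5p (Mir100, RefSeq, for comparison with miR-10a-5p): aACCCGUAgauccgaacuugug

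Of these relatives Mir99a (40873 ± 4135 CPM) was above Mir10a in both libraries. Mir99b (18388 ± 203 CPM), Mir100 (3801 ± 509 CPM) and Mir125a (3542 ± 209 CPM) lay between Mir10a and Mir10b. Mir125b-2 (312 ± 16.2 CPM) and Mir125b-1 (224 ± 2.37 CPM), whose 5p product is the same and can be undercounted, lay below Mir10b (SD, n = 2 for each). All 6 were detected. Mir10a thus stood among the most abundant of the 8 genes and Mir10b below all but the Mir125b genes.

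The ratio of CPM in replicate 2 over replicate 1 was 1.04 for Mir10a (95% interval 1.03 to 1.05), 0.843 for Mir10b (0.814 to 0.873), 1.17 for Mir615 (1.03 to 1.33), 0.938 for Mir196b (0.827 to 1.06), 1.19 for Mir196a-2 (0.949 to 1.49) and 1.30 for Mir196a-1 (0.634 to 2.74). Among detected genes 9.8% were at least 1.5-fold apart, and 0 of the 6 members were, a count too small to set them apart from that background. The fold between replicates of 4 members (Mir10b, Mir615 and the Mir196a genes) was above the median of detected genes, 1.10-fold. The miR-10 genes moved in opposite directions, Mir10a higher and Mir10b lower in replicate 2, both beyond counting error. The step of Mir10a, 1.04-fold, was matched or exceeded by 78.2% of detected genes. Its ratio was 1.058 with TMM and 1.051 with DESeq2 library sizes, above the upper bound of 1.046. The counting interval does not cover the choice of scaling. The ratio of Mir10b stayed inside its interval under both. The step of Mir10b, 1.19-fold, was matched or exceeded by 29.4% of detected genes. The liver, neural and leukocyte lists were also lower in replicate 2, as given above. The striated muscle and erythroid lists were higher in sum. Striated muscle genes did not move together: Mir208a fell from 573 to 255 CPM, while Mir208b rose from 269 to 780 CPM. Mir206 and Mir499 also rose. The kidney and gut sums were level within counting error (95% intervals 0.00981 to 0.0116% and 0.00997 to 0.0116%). In that list Mir215 and Mir194-1 fell while Mir192 and Mir194-2 rose. Most neural counts were those of Mir137, 889 in replicate 1 and 700 in replicate 2. What part other tissues have in the step of Mir10b was not tested.

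**Figure D4:**
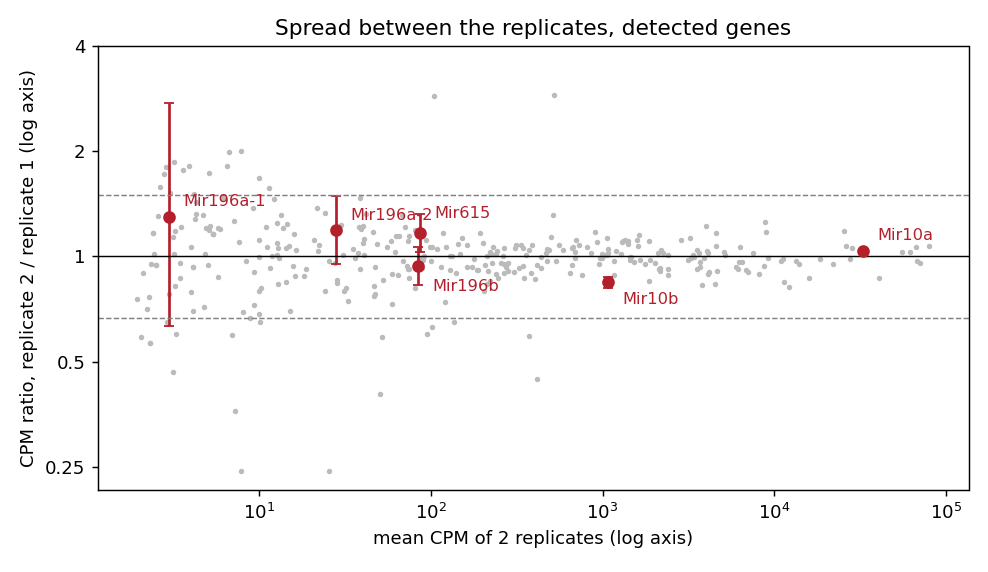
CPM ratio of replicate 2 over replicate 1 against mean CPM for the 357 detected genes, both on log axes, with 95% exact binomial intervals (counting error) on the 6 HOX cluster genes and dashed lines at 1.5-fold. The 6 genes lie inside the dashed lines, at 0.843 for Mir10b and between 0.938 and 1.30 for the others, and the interval of Mir196a-1 reaches past both lines.

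Reads opposite to the members were nearly absent. In replicate 1 none of the 6 genes had a read on the other strand, and in replicate 2 only Mir10a had any, 2 reads beside its 215868. The upper 95% bound of the opposite-strand share was 0.00335% for Mir10a in replicate 2 and 0.0587% for Mir10b in replicate 1. For Mir196a-1, with few counts, it was 23.2% in replicate 1, so little can be said there. No gene is annotated opposite to the members at these places.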

How the data were processed

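Small RNA of 2 libraries was counted by the authors. The deposited values are raw read counts per microRNA gene on mm10 with annotation M4, as each library's readme states. Which aligner, counter and read filters were used is not given in the sources used here. Of 3 deposited count columns per library, the one of the annotated strand was used, as judged from the totals. The 4 summary lines were left out of library sizes. Multimapped reads were assumed to be counted in no gene. CPM was computed from the total of gene counts, 5354530 and 6489390 reads in replicates 1 and 2. A count of 0 allows up to 3 counts, 0.560 and 0.462 CPM.

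GENCODE M21 (GRCm38) gave names and positions and named 1894 of the 1973 identifiers without regard to version. Means and SDs are over 2 libraries. Differences between genes were tested by exact 2-sided permutation of log2 CPM, 2 values against 2, without use of the pairing by library. HOX neighbours were the nearest coding exons on the same strand, and 1 HOX gene is not reported here. Genes named beside the members were their neighbours in rank and a list of miR-10 relatives. The members, by a rule on name and place, and the lists were chosen with earlier results of these data known. Alternatives were counts without regard to strand, other totals, each replicate alone, other minimum counts, TMM scaling (edgeR 4.0.16) and DESeq2 1.42.0 size factors. The ratio and its interval were tested on simulated data with planted ratios. Software was R 4.3.3 and Python 3.11.15 (scipy 1.17.1, pandas 2.3.3, numpy 2.4.6, matplotlib 3.10.9).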

Additional observations from a re-analysis of the deposited data

How the results depend on the processing

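The share of counts in the 6 members, 3.39%, became 3.29% with counts taken without regard to strand, 3.68% with Mir143 left out of the total, 2.05% with reads mapped to several places added to the total, 1.61% over all reads, and 0.128% with Mir10a left out of the list. It was 3.34% to 3.45% with either replicate left out and moved by less than 1 SD under TMM scaling, DESeq2 size factors and without the Mir196a genes. The log2 ratio of Mir196b over Mir615 turned to 0.13 without replicate 2, and was -0.19 without replicate 1; the cause was not tested. The log2 ratio of Mir10a over Mir10b (4.77 to 5.07 with a replicate left out) and of miR-10 over miR-196 genes (8.17 to 8.21) kept their direction in every alternative run. Library totals cancel in these ratios, and no run gave reads mapped to several places back to the Mir196a genes. The kept direction of the family ratio therefore does not address their undercount. With a minimum of 100 counts 5 members were detected, and with the other minimums and columns 6. With only 1 group there was no second group to pair with it. The ratios between genes were taken within each library, but the permutation test did not use that pairing. Depth limits Mir196a-1, with 14 and 22 counts, most.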
